A study of Mus musculus with 22 samples.

Results

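The genes described here are Dlx1, Dlx2, Dlx5, Dlx6, Dlx6os1, Lhx6, Gad1 and Gad2, chosen by name as the forebrain interneuron program and the enzymes that make GABA. They are 8 of 55385 genes in the files, and each was described in ribosome-bound mRNA of 6 cell types of the mouse nervous system, with 3 biological replicates per cell type. Tissue came from mice 6 weeks of age, and all of them were Rpl22 Fl/+, a RiboTag allele that puts an HA tag on the ribosomal protein RPL22 only where Cre is present, so that tagged ribosomes and their mRNA can be pulled from whole tissue. Inhibitory interneurons were marked by Dlx6a-Cre in hippocampus and each of their libraries pooled 2 mice. The Dlx6a-Cre transgene carries regulatory sequence of a dlx5/dlx6 locus, so high Dlx5 and Dlx6 in these libraries is not independent of how the cells were marked. Dentate gyrus granule cells (hippocampus) and layer V cortical neurons (cortex) were both marked by Rbp4-Cre and cerebellar granule cells by Gabra6-Cre. Cortical astrocytes were labelled Aldh1-cre, which the study's methods give as an Aldh1l1-cre/ERT2 line, and cortical microglia Tmem119-cre; the methods give both as tamoxifen-inducible. Interneuron and microglia libraries came from the second of 2 batches only; the other cell types came from the first, and 4 of their replicates were also sequenced in the second.

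The DLX proteins are homeodomain transcription factors that specify GABAergic neurons of the embryonic ventral forebrain, and their genes lie in pairs that face each other and share enhancers. Dlx6os1 (Evf2) is a long noncoding RNA made from the strand opposite Dlx6. LHX6 is a LIM-homeodomain factor that acts below the DLX proteins in neurons of the medial ganglionic eminence, the source of parvalbumin and somatostatin interneurons. Gad1 and Gad2 encode glutamate decarboxylases GAD67 and GAD65, which make GABA from glutamate.

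The genes lie on 2 chromosomes of GRCm38. On chromosome 2, Gad2 spans chr2:22622205-22693874 on the plus strand, Lhx6 chr2:36081953-36105408 on the minus strand and Gad1 chr2:70553072-70602014 on the plus strand. Dlx1 (chr2:71528113-71533981, plus strand) and Dlx2 (chr2:71543408-71546754, minus strand) face each other across a gap of 9426 bases. On chromosome 6, Dlx6 (chr6:6863334-6868568, plus strand) and Dlx5 (chr6:6877805-6882085, minus strand) face each other across 9236 bases, and Dlx6os1 (chr6:6820189-6871592, minus strand) runs across the whole of Dlx6. In GENCODE M21, the exons of Dlx6 and Dlx6os1 shared 0 bases, whereas Dlx1 and its antisense gene Dlx1as shared 335 exonic bases, 6.21% of those of Dlx1. The strand setting of the quantification is not given in the sources used here, so reads from those shared bases may have been split between Dlx1 and Dlx1as.

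Promoter windows of 300 bases (250 before to 50 after a start, from RefSeq on GRCm38.p6) were given for 6 of the 8 genes, in 9 windows, and none for Dlx5 and Dlx6. They were searched for TAATT on both strands (so also AATTA), the core letters bound by many homeodomain proteins; where the 2 overlap as TAATTA both were counted. A match was found in 3 of the 9 windows and in 27.0% of all 32851 windows of the table. The Dlx6os1 window chr6:6869484-6869783, which lies in the gap between Dlx6 and Dlx5, held 7 matches, a number reached by 0.14% of all windows. The second Dlx6os1 window, chr6:6861634-6861933, held 4, a number reached by 1.65%. An Lhx6 window, chr2:36104011-36104310, held 1, and the windows of Dlx1, Dlx2, Gad1 and Gad2 held 0. The 2 Dlx6os1 windows had a GC content of 35.7% and 35.3%, against a median of 52.7% over all windows and 69.3% for Dlx1. Such matches describe letters and not bound sites. The windows with matches are shown first, each on the minus strand and with TAATT or AATTA in capitals. They are followed by the windows of Gad1 (chr2:70561879-70562178, plus strand) and Gad2 (chr2:22622077-22622376, plus strand), without a match, because the 2 GAD genes are those whose levels part in 1 cell type below.
Dlx6os1, chr6:6869484-6869783: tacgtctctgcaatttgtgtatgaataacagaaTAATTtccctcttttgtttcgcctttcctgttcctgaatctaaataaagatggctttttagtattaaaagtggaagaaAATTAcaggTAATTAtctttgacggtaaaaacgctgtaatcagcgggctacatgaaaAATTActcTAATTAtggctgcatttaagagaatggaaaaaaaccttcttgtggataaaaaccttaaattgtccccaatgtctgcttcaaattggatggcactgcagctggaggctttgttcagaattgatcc
Dlx6os1, chr6:6861634-6861933: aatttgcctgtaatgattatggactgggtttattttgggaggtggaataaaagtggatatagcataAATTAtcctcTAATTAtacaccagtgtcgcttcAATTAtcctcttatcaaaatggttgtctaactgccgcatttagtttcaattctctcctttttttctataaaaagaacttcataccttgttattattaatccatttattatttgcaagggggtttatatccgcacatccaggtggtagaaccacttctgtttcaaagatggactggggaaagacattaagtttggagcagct
Lhx6, chr2:36104011-36104310: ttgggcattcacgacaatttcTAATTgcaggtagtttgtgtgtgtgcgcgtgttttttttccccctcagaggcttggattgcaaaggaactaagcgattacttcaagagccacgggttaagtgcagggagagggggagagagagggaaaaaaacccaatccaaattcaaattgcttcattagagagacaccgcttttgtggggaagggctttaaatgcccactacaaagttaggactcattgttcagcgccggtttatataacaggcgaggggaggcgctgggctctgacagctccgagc
Gad1, chr2:70561879-70562178: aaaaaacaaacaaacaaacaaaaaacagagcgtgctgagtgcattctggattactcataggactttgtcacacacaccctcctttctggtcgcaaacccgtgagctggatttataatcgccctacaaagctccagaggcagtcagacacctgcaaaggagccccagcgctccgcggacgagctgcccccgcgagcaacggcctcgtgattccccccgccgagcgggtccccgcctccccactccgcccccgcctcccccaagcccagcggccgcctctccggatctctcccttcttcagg
Gad2, chr2:22622077-22622376: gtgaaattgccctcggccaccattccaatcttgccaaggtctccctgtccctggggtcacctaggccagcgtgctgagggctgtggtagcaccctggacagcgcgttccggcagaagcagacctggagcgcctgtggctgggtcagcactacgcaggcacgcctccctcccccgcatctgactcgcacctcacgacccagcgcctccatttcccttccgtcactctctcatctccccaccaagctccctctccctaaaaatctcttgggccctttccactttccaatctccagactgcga

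Each replicate entered once, giving 18 libraries with 38270477 to 71440915 estimated counts. Levels below are TPM, the share of all transcripts after division by length, which can be compared between genes, and fold changes are from a quasi-likelihood test in edgeR on estimated counts over 20524 genes, with Benjamini-Hochberg adjusted p-values. The interneuron markers used were the 8 genes with Slc32a1, and they summed to between 3706 and 3888 TPM in interneuron libraries. As 8 of them are the genes described, that sum is no separate check of the label. Interneuron libraries held more of the 5 oligodendrocyte markers (summed 2612 to 2795 TPM, Mbp highest at 1184 ± 27.2) than every other cell type. Elsewhere that sum was 102 to 121 in cerebellar granule cells and at most 982, in astrocytes. The 5 excitatory forebrain markers summed to 401 to 526 TPM in interneurons, led by Camk2a, and to 4117 to 4634 in dentate gyrus granule cells. Oligodendrocyte precursor markers (6.75 to 8.35 TPM, Pdgfra highest), astrocyte markers (39.8 to 52.1, Gfap highest), microglia markers (6.95 to 7.62, C1qa highest), endothelial markers (6.32 to 10.7, Cldn5 highest) and markers of cerebellar GABAergic cells (5.23 to 6.34, Car8 highest) were low in interneurons. In interneurons, the highest dentate gyrus marker was Calb1 (153 ± 16.5 TPM), the highest layer V marker Rbp4 (87.0 ± 27.2) and the highest cerebellar granule marker Zic1. Calb1 and Zic1 were higher in the cells they mark, at 536 TPM in dentate gyrus and 1004 TPM in cerebellar granule cells. Rbp4 had a lower mean in layer V neurons (52.2 TPM), which were marked by Rbp4-Cre. That difference was not called (log2 0.41 ± 0.18, interneurons over layer V neurons, adjusted p = 0.054, edgeR). Its interneuron values were 77.3, 66.0 and 118 TPM in replicates 1, 2 and 3. Interneuron replicate 3 stood apart for Zic1, at 2.16 TPM against 36.4 and 29.8, and for 7 genes of striatal projection neurons, summed to 695 TPM against 264 and 237; that list was chosen after values were seen. The part of these cells in the levels below was not tested. In bulk libraries, fewer cells of a type and less RNA per cell cannot be told apart.

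In inhibitory interneurons, all 8 genes reached levels not approached in any other cell type. Gad1 was at 1978, 2084 and 2025 TPM in replicates 1, 2 and 3, and Gad2 at 551, 603 and 555 TPM. The GAD genes were thus several times above the transcription factors in every interneuron library. Lhx6 was at 150, 158 and 162 TPM, Dlx1 at 135, 151 and 138 TPM, and Dlx6 at 114, 106 and 109 TPM. Dlx5 was at 91.2, 104 and 102 TPM, Dlx6os1 at 85.5, 93.5 and 85.1 TPM, and Dlx2 at 54.9, 55.6 and 53.7 TPM. The interneuron libraries were close to each other, with coefficients of variation from 1.69% (Dlx2) to 7.03% (Dlx5), and replicate 3, which stood apart for Zic1, did not stand apart for any of the 8 genes. By mean TPM, Lhx6 and Dlx1 were next to each other at 157 ± 6.05 and 141 ± 8.22 (SD, n = 3), with a library of Dlx1 (151) above the lowest of Lhx6 (150). Dlx6 (110 ± 4.24), Dlx5 (99.1 ± 6.97) and Dlx6os1 (88.0 ± 4.75) followed, with Dlx2 lowest at 54.7 ± 0.926.

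**Figure D1:**
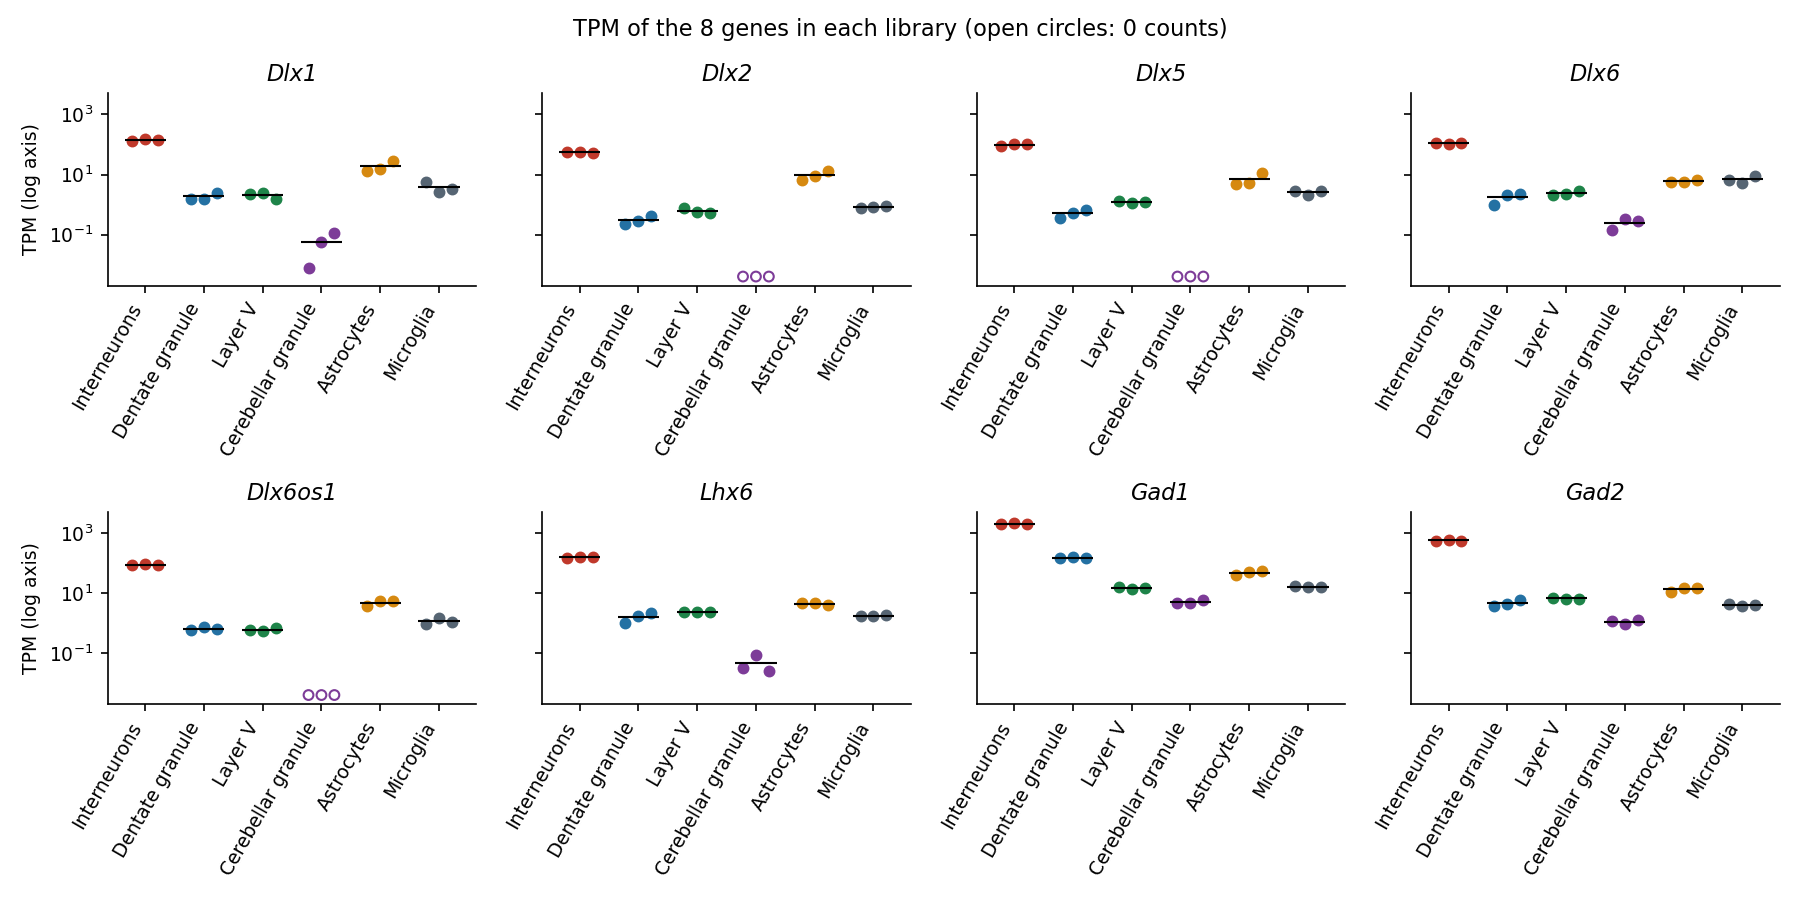
TPM of each gene (log axis) in the 3 libraries of each cell type; points are libraries, bars are means, and open circles at the foot are libraries with 0 counts. Interneurons lie above every other library for all 8 genes, with Gad1 at 1978 to 2084 TPM; Dlx2, Dlx5 and Dlx6os1 have 0 counts in the 3 cerebellar granule cell libraries.

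Against the mean of the other 5 cell types, 8 of 8 genes were at least 10-fold higher in interneurons, a call made for 2.05% of all genes tested (adjusted p between 2.3e-20 for Lhx6 and 4.9e-14 for Dlx5, edgeR). All 8 genes passed the filter on low counts, and all 8 also passed it without the interneuron libraries. In the single comparisons, 8 of 8 were at least 10-fold higher than in dentate gyrus granule cells (3.13% of all genes), than in layer V neurons (2.45%), than in microglia (4.64%) and than in cerebellar granule cells (13.5%). Against astrocytes the count was 6 of 8, at a background of 1.61%. The median log2 fold change of the 8 genes was 6.67 over dentate gyrus granule cells, 6.06 over layer V neurons, 5.86 over microglia and 3.97 over astrocytes, where that of all genes lay between -0.08 and 0.04. In the fit on batch 2 libraries alone, which leaves 1 library of each cell type but interneurons and microglia, the counts were again 8, 8, 8, 8 and 6.

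**Figure D2:**
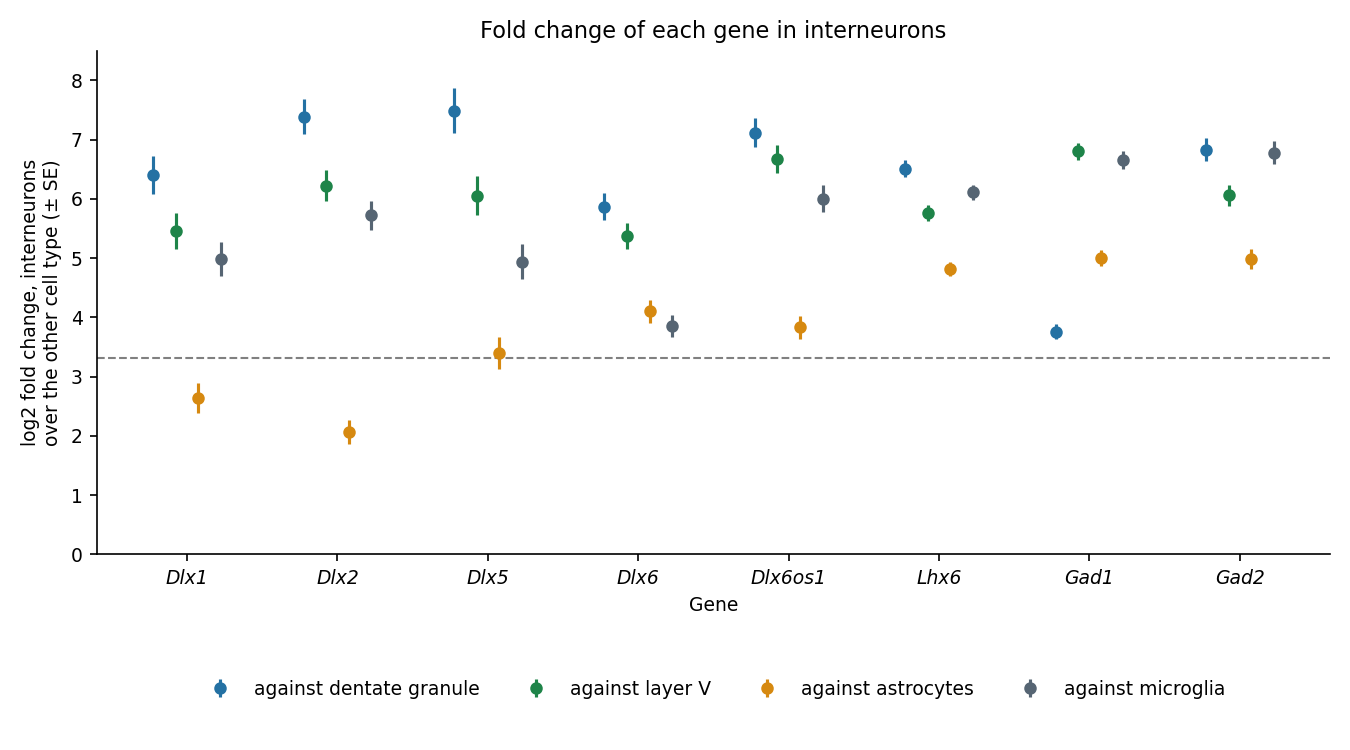
log2 fold change of each gene, interneurons over each of 4 cell types as coloured, with SE bars (n = 3 libraries per cell type); the dashed line is 10-fold. Dlx1 (2.64) and Dlx2 (2.07) against astrocytes lie under the line, and Gad1 is lowest against dentate gyrus granule cells (3.76).

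In layer V cortical neurons, excitatory projection neurons, the 8 genes were all at a similarly low share of the interneuron level. The shares of the interneuron mean TPM ran from 0.679% (Dlx6os1) to 2.16% (Dlx6), with a median of 1.19%. Gad1 was at 16.4, 14.0 and 14.2 TPM and Gad2 at 6.95, 6.51 and 6.50 TPM. Dlx1 was at 2.18, 2.36 and 1.54 TPM, and Dlx2 at 0.782, 0.579 and 0.535 TPM. The fold change of interneurons over layer V neurons was smallest for Dlx6 (log2 5.37 ± 0.22 SE, adjusted p = 6.5e-13) and largest for Gad1 (6.80 ± 0.15, adjusted p = 6.4e-16, edgeR). The 5 layer V markers summed to 292 to 309 TPM in these libraries, which did not set them apart from dentate gyrus granule cells (271 to 308) and was below that of the cerebellar ones (712 to 745, of which Etv1 was 728).

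In dentate gyrus granule cells, the glutamatergic principal cells of the dentate gyrus, Gad1 parted from the other 7 genes. Gad1 was at 146, 160 and 143 TPM, 7.37% of the interneuron mean, whereas Gad2 was at 3.74, 4.46 and 5.99 TPM, 0.830% of it. The 3 Gad1 values lay above those of every other cell type but interneurons, while the Gad2 values overlapped with those of microglia and lay below those of layer V neurons. The other 6 genes were at 0.529% (Dlx5) to 1.63% (Dlx6) of the interneuron mean. Dlx2 was at 0.221, 0.286 and 0.408 TPM and Lhx6 at 0.999, 1.78 and 2.10 TPM. Slc32a1, the vesicular GABA transporter, was at 3.57 TPM in these cells and 535 ± 9.65 TPM in interneurons. Interneurons over dentate gyrus granule cells gave log2 3.76 ± 0.13 for Gad1 (adjusted p = 6.5e-14), and between 5.87 ± 0.23 (Dlx6) and 7.49 ± 0.38 (Dlx5) for the other 7 (edgeR). On batch 2 libraries alone, with 1 dentate gyrus library, Gad1 was at 3.83 and Dlx2 at 6.43, against 7.39 in the main comparison.

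The same difference stood between the 2 cell types marked by Rbp4-Cre. Against layer V neurons, 1 of the 8 genes was higher in dentate gyrus granule cells, Gad1, by log2 3.04 ± 0.13 (adjusted p = 2.1e-12; 33.1% of all genes were called higher), and its 3 values did not overlap. Lower in dentate gyrus granule cells were 5 of 8, Dlx1, Dlx2, Dlx5, Lhx6 and Gad2, against 30.3% of all genes. Gad2 fell by 0.77 ± 0.16 on the log2 scale (adjusted p = 0.00041, edgeR) and Lhx6 by 0.75 ± 0.14 (adjusted p = 0.00016). The count of 5 was 2 without dentate gyrus replicate 1 and 1 on batch 2 libraries alone, and Gad1 was called higher in both. Dlx1 was called on counts (-0.95 ± 0.33, adjusted p = 0.017) while its TPM ranges overlapped (means 1.86 ± 0.569 against 2.03 ± 0.429, SD, n = 3), and limma on TPM gave -0.14 (adjusted p = 0.73). For Dlx6os1 the mean TPM was higher in dentate gyrus granule cells (0.647 against 0.598) while the count-based log2 fold change was -0.45 ± 0.32 (adjusted p = 0.23, edgeR), so that its direction was not settled.

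The ratio of Gad1 to Gad2 TPM within a library showed the parting without reference to another library. It was 39.1, 35.8 and 23.8 in dentate gyrus granule cells and 3.59, 3.46 and 3.65 in interneurons. In astrocytes it was 3.44, 3.45 and 3.48, in microglia 4.02, 4.46 and 3.79, and in cerebellar granule cells 4.28, 5.13 and 4.77. Layer V neurons had the lowest, at 2.36, 2.15 and 2.18. Interneurons and astrocytes overlapped in this ratio, and the repeat of dentate gyrus replicate 3 in batch 2 gave 22.5. Interneurons against the 15 other libraries gave a difference of -0.61 in the mean log2 ratio (p = 0.57, two-sided exact permutation test, smallest possible p 0.0012). In that comparison layer V neurons lay below and dentate gyrus granule cells above. The test permutes libraries, which lie close together within a cell type, so it measures libraries and not cell types.

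**Figure D3:**
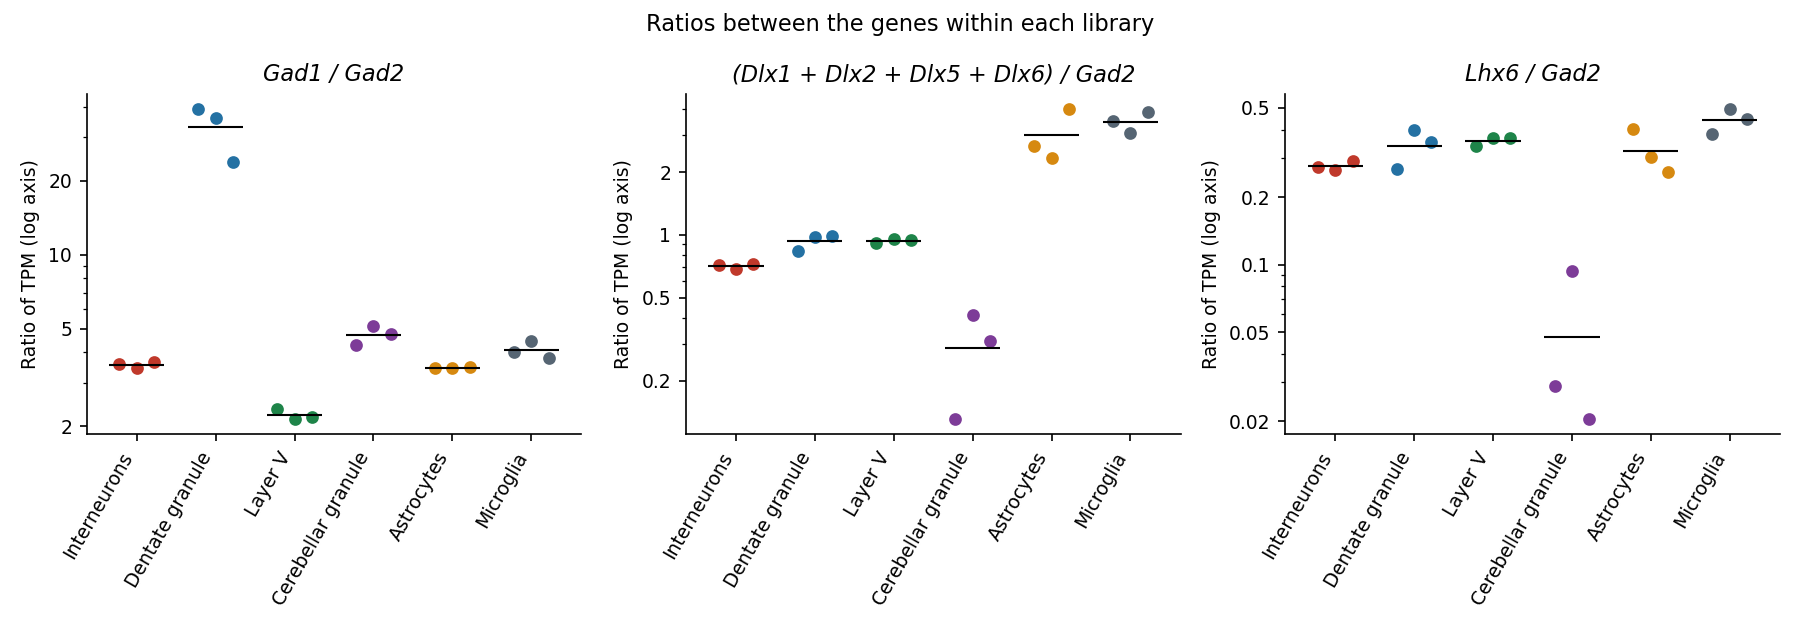
Ratios of TPM within each library (log axes) of Gad1 to Gad2, of summed Dlx1, Dlx2, Dlx5 and Dlx6 to Gad2, and of Lhx6 to Gad2; points are libraries and bars means of 3. Dentate gyrus granule cells stand apart in the first (23.8 to 39.1), astrocytes and microglia in the second (2.34 to 4.01), and cerebellar granule cells lie lowest in the second and the third.

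The transcript make-up of Gad1 also differed in dentate gyrus granule cells, in the share of Gad1-202. Gad1-202, a short protein-coding transcript of 1138 bases, held 12.1% to 13.1% of Gad1 TPM there, against 2.96% to 3.29% in interneurons, 2.37% to 3.00% in layer V neurons and 3.24% to 3.83% in astrocytes. These ranges did not overlap with that of dentate gyrus granule cells. Cerebellar granule cells (3.36% to 11.3%) and microglia (0.6% to 4.07%) varied more at their lower Gad1 level. Gad1-201 (58.9% in interneurons, 57.0% in dentate gyrus granule cells) and Gad1-206 (37.3% and 29.7%) held most of the rest. Gad1-206 is annotated as a processed transcript and not as protein-coding. Its share in interneurons (35.0% to 39.5%) did not overlap with that in layer V neurons (42.0% to 54.2%) or astrocytes (16.1% to 34.7%) either. No test was made on transcript shares.

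**Figure D4:**
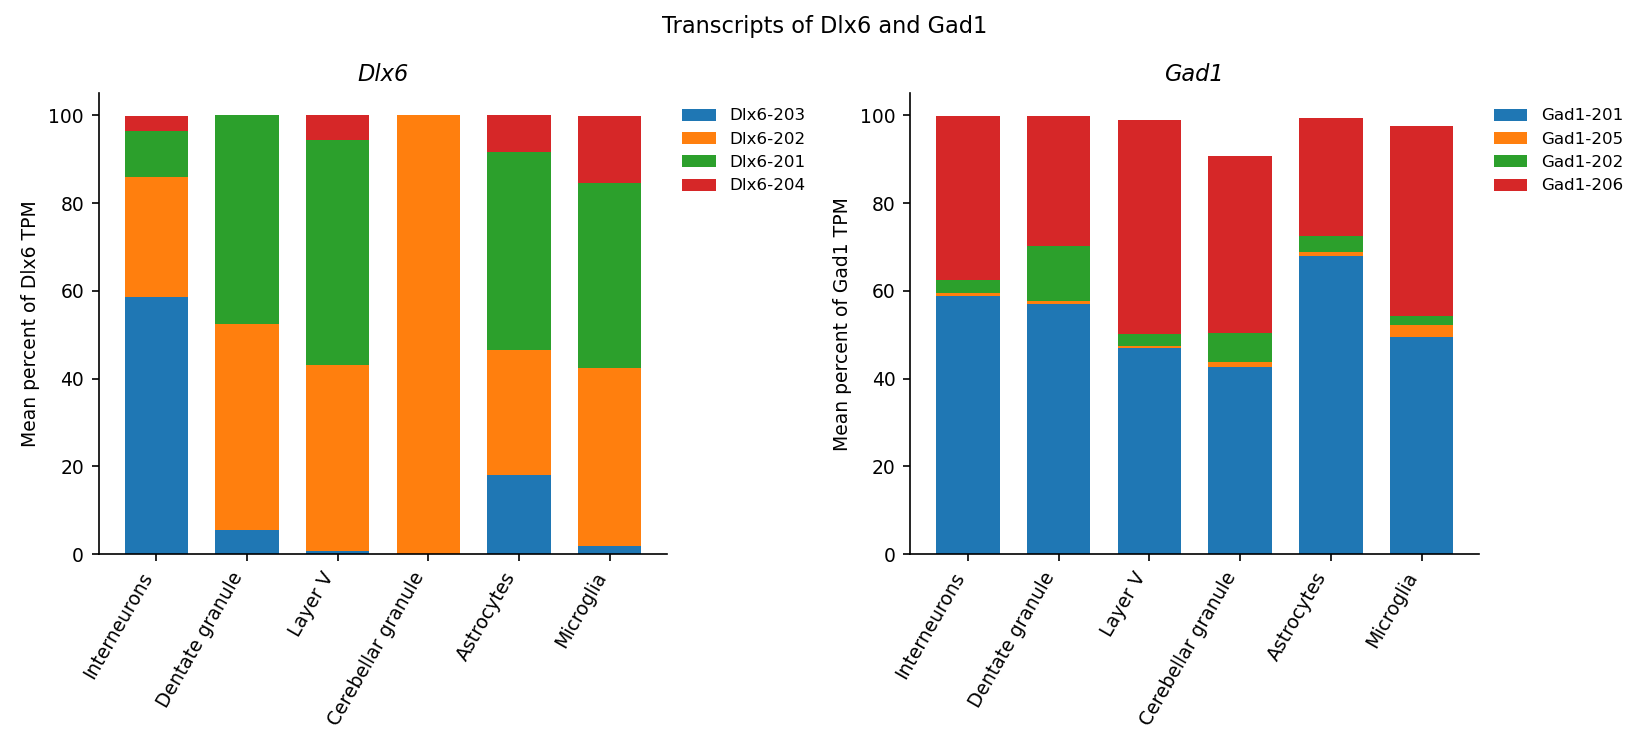
Mean percent of Dlx6 and Gad1 TPM held by each transcript in the 6 cell types (n = 3 libraries each; transcripts with over 0.5% in interneurons are drawn, so that Gad1 bars can end below 100). Dlx6-203 holds 58.7% in interneurons and 1.8% in microglia, and Gad1-202 holds 12.5% in dentate gyrus granule cells.

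In cortical astrocytes, the Dlx genes were nearer to the interneuron level than were Lhx6 and the GAD genes. Dlx2 was at 6.72, 8.77 and 13.1 TPM in replicates 1, 2 and 3, 17.4% of the interneuron mean, and Dlx1 at 12.8, 15.6 and 29.2 TPM, 13.6% of it. Dlx5 was at 4.76, 5.05 and 11.3 TPM (7.09%). Replicate 3 was highest for these genes, and the lowest astrocyte library still lay above every library of the other 4 non-interneuron cell types for all 3. Dlx6os1 (3.65, 5.33 and 5.52 TPM) was at 5.49% and Dlx6 (5.65, 5.45 and 6.70 TPM) at 5.41%. Lhx6, at 4.50, 4.49 and 3.90 TPM, was at 2.74% and lowest in replicate 3. Gad1 was at 38.7, 51.4 and 52.2 TPM 2.34% of the interneuron mean, and Gad2 at 13.7 ± 2.15 TPM (SD, n = 3), 2.41% of it and lowest in replicate 1, at 11.2 TPM. Interneurons over astrocytes gave log2 2.07 ± 0.20 for Dlx2 (4.21-fold, adjusted p = 1e-07) and 2.64 ± 0.25 for Dlx1 (6.23-fold, adjusted p = 3.2e-08), against 4.81 ± 0.12 for Lhx6, 5.00 ± 0.14 for Gad1 and 4.98 ± 0.17 for Gad2 (edgeR). Dlx5 (3.39 ± 0.27), Dlx6os1 (3.83 ± 0.20) and Dlx6 (4.10 ± 0.20) lay between. Without astrocyte replicate 3 the values were 2.51 for Dlx2, 3.16 for Dlx1 and 4.06 for Dlx5, and those of Lhx6, Gad1 and Gad2 were 4.85, 5.21 and 5.17. The batch 2 library of astrocyte replicate 2 had 8.52 TPM of Dlx2 and 16.5 TPM of Dlx1, against 8.77 and 15.6 in batch 1.

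The astrocyte libraries were labelled as their markers read, with 4617 to 4870 TPM of the 5 astrocyte markers, and at most 210 in any library of another cell type. Genes of immature neurons, a list of 6 chosen after values were seen, summed to 32.1, 47.4 and 65.9 TPM in astrocyte replicates 1, 2 and 3, in the same order as Dlx1, Dlx2 and Dlx5. The sum was 125 to 133 in interneurons, 17.1 to 19.7 in dentate gyrus granule cells, and at most 14.3 in layer V neurons, 1.84 in cerebellar granule cells and 7.75 in microglia. Dcx, a microtubule protein of migrating neurons, was at 3.32, 5.92 and 9.06 TPM in astrocytes and Sp8, a zinc finger factor of olfactory bulb interneurons, at 1.59, 2.53 and 5.21 TPM. Sp8 and Sp9 of this list are also among the interneuron transcription factors described below. In interneurons Sp9 (51.8 TPM) and Cd24a (44.9 TPM) were the highest of the 6, so the sum is not separate from the interneuron program. Whether immature neurons were in the astrocyte libraries, and their part in the Dlx level there, was not tested.

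Against layer V neurons, 8 of 8 genes were higher in astrocytes (39.0% of all genes were called in that direction), from log2 0.94 ± 0.12 for Lhx6 to 4.14 ± 0.25 for Dlx2 (adjusted p = 1.6e-06 and 3.1e-10, edgeR). Against microglia, 7 of 8 were higher in astrocytes (39.8% of all genes), led by Dlx2 (3.64 ± 0.24, adjusted p = 8.7e-10) and Dlx1 (2.35 ± 0.27). The exception was Dlx6, at -0.25 ± 0.19 (adjusted p = 0.25). The ratio of Dlx2 to Gad2 TPM was 0.687 ± 0.162 in astrocytes, 0.211 ± 0.0309 in microglia, 0.0962 ± 0.00374 in interneurons, 0.0946 ± 0.0159 in layer V neurons and 0.0638 ± 0.00451 in dentate gyrus granule cells (SD, n = 3), while that of Lhx6 to Gad2 lay between 0.26 and 0.494 in every library but the cerebellar ones.

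**Figure D5:**
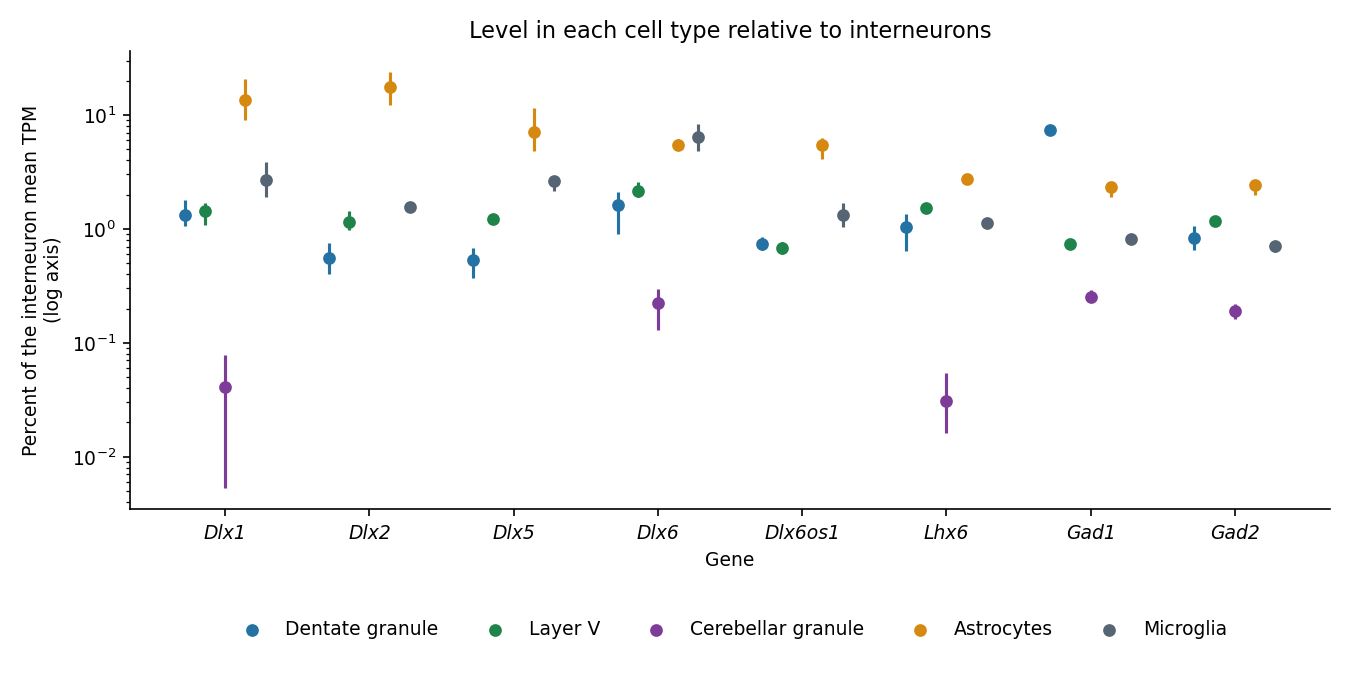
Mean TPM of each gene in each cell type as a percent of its interneuron mean (log axis), with bars from the lowest to the highest of 3 libraries; cell types at 0 counts are not drawn. Dlx1 and Dlx2 in astrocytes (13.6% and 17.4%), Dlx6 in microglia (6.34%) and Gad1 in dentate gyrus granule cells (7.37%) stand above the other genes of their cell type.

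In cortical microglia, the 8 genes were low, with Dlx6 the highest as a share of its interneuron level. Dlx6 was at 6.48, 5.30 and 9.07 TPM, 6.34% of the interneuron mean, and its range overlapped with that in astrocytes. The other genes were at 0.708% (Gad2) to 2.67% (Dlx1) of theirs. Gad1 was at 17.7, 15.9 and 15.6 TPM and Gad2 at 4.03 ± 0.423 TPM (SD, n = 3), Gad1 overlapping with layer V neurons. Interneurons over microglia gave log2 3.85 ± 0.19 for Dlx6 (adjusted p = 2.3e-12) and 6.78 ± 0.19 for Gad2 (adjusted p = 3.4e-16, edgeR). Layer V neurons were lower than microglia for 3 of 8 genes, Dlx5, Dlx6 and Dlx6os1, against 42.7% of all genes, and Dlx6 fell by 1.52 ± 0.21 on the log2 scale there (adjusted p = 3.6e-06). The count of 3 was 5 without astrocyte replicate 3. Higher in layer V neurons were 2 of 8, against 40.5% of all genes, Gad2 by 0.72 ± 0.16 (adjusted p = 0.00042) and Lhx6 by 0.35 ± 0.13 (adjusted p = 0.021, edgeR). Lhx6 was not called without layer V replicate 2 or microglia replicate 1. The shares of the 8 genes called in this comparison were thus near or below those of all genes.

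The Dlx6 reads of microglia were assigned to other transcripts than those of interneurons. Dlx6-203, of 1071 bases, held 55.3% to 63.5% of Dlx6 TPM in interneurons, 0% to 2.73% in microglia, 0% to 1.83% in layer V neurons and 0% to 16.0% in dentate gyrus granule cells. In astrocytes it held 11.7% to 28.0%. In microglia, Dlx6-201 (42.3%, 605 bases) and Dlx6-202 (40.6%, 2216 bases) held most, and the retained-intron transcript Dlx6-204 held 15.2% against 3.55% in interneurons. The Dlx6-203 level itself was 64.2 TPM in interneurons, 1.10 in astrocytes and 0.129 in microglia.

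In cerebellar granule cells, excitatory neurons of hindbrain origin, the program was at or near 0. Dlx2, Dlx5 and Dlx6os1 had 0 counts in all 3 libraries. Against a floor of 3 counts per library, which covers counting error only, interneurons were at least 1388-fold higher for Dlx2, 1165-fold for Dlx5 and 2422-fold for Dlx6os1. Dlx1 had 1, 3 and 5 counts in replicates 1, 2 and 3, and Lhx6 7.4 over the 3 libraries together. Dlx6 was at 0.141, 0.325 and 0.273 TPM, all of it in Dlx6-202. The GAD genes were measured at a higher level, Gad1 at 4.82, 4.70 and 5.89 TPM and Gad2 at 1.13, 0.917 and 1.23 TPM, 0.253% and 0.192% of interneurons. Layer V neurons were higher than cerebellar granule cells for 8 of 8 genes, against 42.0% of all genes. Markers of cerebellar GABAergic cells summed to 29.8 to 32.7 TPM in these libraries, against at most 2.24 in layer V neurons and microglia. The sum was made up of Pcp2 (15.1 TPM) and Car8 (15.3 TPM), and the other 5 markers of the list had mean levels of at most 0.626 TPM there. In astrocytes, where the list summed to 51.6 to 58.0 TPM, Car8 alone was at 54.3 TPM and Pcp2 at 0.0269 TPM. The part of such cells in the GAD level of cerebellar granule cell libraries was not tested.

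The level of the Dlx genes relative to the GAD genes also differed between cell types. Dlx1, Dlx2, Dlx5 and Dlx6 together came to 0.0291 ± 0.00972 of Gad1 and Gad2 together in dentate gyrus granule cells, and 0.0489 ± 0.0218 in the cerebellar ones. The ratio was 0.156 ± 0.000909 in interneurons, 0.291 ± 0.0169 in layer V neurons, 0.674 ± 0.197 in astrocytes and 0.691 ± 0.124 in microglia (SD, n = 3). Cerebellar granule cells against the 12 libraries of the other 4 non-interneuron cell types gave a difference of -0.373 (p = 0.077, two-sided exact permutation test, smallest possible p 0.0022). Leaving out any 1 of the dentate gyrus libraries, which lay as low, gave p from 0.044 to 0.049 in the same test. Libraries of 1 cell type lie close together, so these p-values measure libraries and cannot decide a difference between cell types. With Gad2 alone as the base, the ratio was 0.711 ± 0.0194 in interneurons, 0.935 ± 0.0853 in dentate gyrus and 0.286 ± 0.143 in cerebellar granule cells. Layer V neurons had 0.940 ± 0.0232, astrocytes 3.01 ± 0.888 and microglia 3.49 ± 0.403. Without Dlx6 in the sum, astrocytes had 2.57 ± 0.872, microglia 1.77 ± 0.245 and cerebellar granule cells 0.0525 ± 0.0423. Interneurons then had 0.518 ± 0.00998, dentate gyrus granule cells 0.565 ± 0.0393 and layer V neurons 0.582 ± 0.061.

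The wider program was read from lists of other genes, chosen with earlier results of these data known. Of 17 other interneuron transcription factors, 16 were higher in interneurons than in the mean of the other cell types and 1 was lower, where 35.1% and 32.2% of all genes were called. Npas1, a bHLH-PAS factor, had the largest fold (log2 6.97 ± 0.11, adjusted p = 6.9e-19; 101 ± 8.10 TPM), and Etv1, an ETS factor also used as a layer V marker, was the lower gene (-3.07 ± 0.08, adjusted p = 3.9e-16, edgeR). Their median was 3.34. At 10-fold, 9 of the 17 passed against the mean (2.05% of all genes) and 10 against dentate gyrus granule cells (3.13%). Against layer V neurons 10 passed (2.45%), and against astrocytes 4 (1.61%). Of other Dlx genes, Dlx3 and Dlx4 were too low to be tested. Dlx1as was at 169, 172 and 159 TPM in interneurons, 0 in cerebellar granule cells, and 6.32, 6.86 and 4.63 higher in interneurons on the log2 scale than in dentate gyrus granule cells, layer V neurons and astrocytes. Its fold over astrocytes was near those of Lhx6 and the GAD genes, and above that of Dlx1, whose locus it crosses.

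Of 8 other genes of GABA transport and breakdown, 5 were higher in interneurons than in the mean of the other cell types, 2 were lower and 1 was not called. Of all genes, 35.1% were called higher and 32.2% lower. Slc32a1 led (6.69 ± 0.11, adjusted p = 1e-18). The lower genes were the transporters Slc6a12 (-1.89 ± 0.60, adjusted p = 0.011) and Slc6a13 (-1.87 ± 0.33, adjusted p = 7.4e-05, edgeR), at 0.0801 and 0.443 TPM in interneurons, and the count of 2 was 1 without interneuron replicate 2, layer V replicate 2 or dentate gyrus replicate 1. Against astrocytes, 2 of the 8 were higher in interneurons and 6 lower, where 35.1% and 38.1% of all genes were called. Of 20 genes of interneuron subclasses, 20 were higher in interneurons than in that mean, where 35.1% of all genes were called. Their median log2 fold change was 5.64. Htr3a, a serotonin receptor subunit of interneurons from the caudal eminence, was highest (8.37 ± 0.08, adjusted p = 7.8e-21, edgeR). Calb2, calretinin, was lowest (1.70 ± 0.37, adjusted p = 0.00053, edgeR), with 1946 TPM in cerebellar granule cells against 112 ± 11.4 in interneurons. By mean TPM, Reln (393 against 150) and Kcnc1 (658 against 404) were also higher in cerebellar granule cells. Nos1 was at 50.6 TPM there against 46.9, with overlapping libraries. Against layer V neurons, 18 of the 20 were higher in interneurons and 2 lower, Cck (1246 against 2490 TPM) and Lamp5 (198 against 327).

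The genes whose pattern was most like the 8 were found by Pearson correlation of log2(TPM + 0.1) over the 18 libraries with the mean standardised pattern of the 8, among 20516 genes. The 10 highest were Slc32a1 (r = 0.988), Pthlh (0.982), Pgf (0.982), Pnoc (0.980), Dlx1as (0.977), Pcdh18 (0.977), Mbp (0.976), Npas1 (0.976), Atat1 (0.976) and Cntnap3 (0.975). The libraries fall into 6 cell types, so that these values describe a shared order of cell types and are no test. Mbp, the myelin gene, is among them with 1184 TPM in interneurons, 477 in astrocytes and 65.2 in cerebellar granule cells. With 1 in place of 0.1 TPM added, or with 6 cell type means, 5 of the 10 were among the top 10 again. For single genes, the most similar were Sox1ot for Dlx2 (0.989), Pcdh18 for Dlx5 (0.990), Pdlim3 for Dlx6 (0.979) and Pthlh for Dlx6os1 (0.987). They were Crhbp for Lhx6 (0.995), Prmt3 for Gad1 (0.977) and Slc32a1 for Gad2 (0.993). Among the 8 themselves, the lowest correlation was between Dlx2 and Gad1 (0.790).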

How the data were processed

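RiboTag mRNA libraries (stranded kit) were trimmed by the authors with cutadapt 3.5 and quantified with kallisto 0.46.2 on GENCODE transcripts of GRCm38. The deposited tables hold estimated counts, not normalized, and the authors' TPM for each transcript, and both were summed per gene. Where a symbol had 2 gene ids, that with more counts was used. The batch 1 library was used where a replicate was sequenced in both batches, and the 4 repeats entered alternatives only. Rounded estimated counts were tested in edgeR 4.0.16 (quasi-likelihood, TMM, filterByExpr by cell type; R 4.3.3) with all 6 cell types in a single fit, and tested on simulated data first. SE is the log2 fold change over the root of F. Alternatives were DESeq2 1.42.0, limma 3.58.1 on log2(TPM + 0.1), upper-quartile scaling, no filter, batch, the replicate number as a block, and leaving out each library. Calls were made at an adjusted p under 0.05. Ratios were compared by exact permutation in Python 3.11.15. Genes were named as all 8, the extremes and the lower genes of each list, the highest marker of other cell types in interneurons, and the likeness ranks; the 8 genes and the lists were chosen with earlier results of these data known. Dcx, Sp8, the immature neuron and striatal lists and single transcripts were chosen after values were seen. The gene most like Dlx1 is not reported here.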

Additional observations from a re-analysis of the deposited data

How the results depend on the processing

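Of 1863 recomputed fold changes of single genes (69 results, 27 alternatives), no called value reversed and 1833 kept their side of the threshold; the rest concern layer V neurons against dentate gyrus granule cells or microglia. The uncalled Dlx6os1 difference between dentate gyrus granule cells and layer V neurons was 0.10 with limma on TPM, against -0.45. Of 391 recomputed counts and ratio differences, 384 stayed within 1.5 times or on their side of the threshold. Members lower in dentate gyrus granule cells than in layer V neurons numbered 5, 1 on batch 2 libraries only, and 2 to 6 when a library was left out. Members lower in layer V neurons than in microglia numbered 3, and 2 to 5 when a library was left out (5 without astrocyte replicate 3, which changes only the shared spread). The ratio difference of cerebellar granule cells was -0.409 to -0.329 when a library was left out (p = 0.044 to 0.2, exact permutation). Of these, 3 passed the threshold, in a test that measures libraries and not cell types. Genes at least 10-fold higher in interneurons numbered 421, and 649 without the filter on low counts. Members at least 10-fold higher than in astrocytes numbered 6, and 5 without astrocyte replicate 1 or 2. GABA genes lower in interneurons fell from 2 to 1 under 4 alternatives; 212 of 216 recomputed list counts stayed within 1.5 times. The replicate number did not pair the samples (2 of 45 same-number pairs had r over 0.1); with the replicate number as a block, 8, 8, 8, 8 and 6 members were at least 10-fold higher against the 5 cell types in the order dentate gyrus, layer V, cerebellar granule, microglia and astrocytes, and 424 genes were against their mean, and it changed no other call. Interneuron libraries exist in batch 2 only, so batch and cell type were separated only through microglia and the 4 repeats. P-values measure the spread between 3 libraries per cell type, and counts under about 10 per library limit what can be said of Dlx genes in cerebellar granule cells.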
